A study of Rattus norvegicus with 9 samples.

Results

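T cells of the rat tibial osteotomy site were chosen by the UMIs (unique molecular identifiers, 1 per captured mRNA molecule) of the genes that encode the CD3 chains. Barcodes were kept where 200 or more genes were detected and no more than 20% of the UMIs were mitochondrial. A member was a kept barcode that held at least 2 UMIs of Cd3d, Cd3e and Cd3g together and at most 1 UMI of Cd79a and Cd79b, the signalling chains of the B cell receptor. The rule found 847 members among 114232 kept cells (0.741%). The rule therefore fixed the Cd3 and Cd79 levels of the members, which are given as a description and are not tested.

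T cells recognise antigen through a receptor whose variable chains are held in the membrane by the CD3 gamma, delta and epsilon chains (Cd3g, Cd3d, Cd3e) and the zeta chain (Cd247). The kinases Lck and Zap70 and the adaptor Lat pass the signal on. The coreceptors CD4 and CD8 divide the cells into helper and regulatory cells on one side and cytotoxic cells on the other. In bone marrow T cells are a minor population among B lineage and myeloid cells, and in healing bone they are known as a source of cytokines that act on osteoclasts and osteoblasts.

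The rats were male Sprague-Dawley animals of 6 to 8 weeks whose proximal tibia was opened with a circular osteotomy of 3 mm, together with a skin wound of 4 mm on the foot, so every group carried both injuries and no uninjured tissue was sequenced. The TO group received the osteotomy alone, and the TOE group also received radial shock waves (3 bar, 5 Hz) over the osteotomy on days 2 and 4. Tissue of the osteotomy was taken 4 h or 24 h after each treatment time, and at 0 h for TO on day 2, and made into droplet 3′ libraries, named here by arm, day and hour. The TOE libraries of day 2 were taken before the day 4 treatment. A comparison of arms therefore pools TOE tissue from before and after that treatment, and within TOE the day cannot be told apart from it. The labels gave 9 conditions with 1 library each and do not say how many rats a library held. The library TO 2d 24h was not analysed here. This left 8 libraries and no condition was replicated. Comparisons of arm, day and hour therefore set 4 libraries against 4 that also differed in the other factors, and p-values measure the spread between such libraries. Libraries held 12451 to 17187 barcodes and 95954800 to 144146202 UMIs. Between 38 and 108 kept barcodes were shared by any pair of libraries, and 0 members shared a barcode.

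The label was first checked against the markers Cd2, Cd5 and Lck, and the members turned out to be a mixture. Of the 847 members, 615 (72.6%) held at least 1 UMI of Cd3d or Cd3e and under 3 UMIs of Siglech, 170 (20.1%) held at least 3 UMIs of Siglech, and the other 62 (7.32%) held Cd3g alone. Lck was detected in 70.6% of the 615 cells with Cd3d or Cd3e, in 2.94% of the Siglech members and in 24.2% of the 62 others. Bcl11b, a transcription factor that T cells need for their identity, was detected in 63.3%, 1.18% and 19.4% of the same groups. Cd2 was detected in 59.2%, 33.5% and 9.68%, and Cd5 in 42.9%, 27.1% and 8.06%. NK cells, described further on, held Lck in 58.1%, Cd2 in 50.4% and Cd5 in 9.75%. In cells with at least 4 Cd79 UMIs and no Cd3 UMI, which should lack these genes, Lck was detected in 7.06% and Bcl11b in 0.945% at a median of 4501 UMIs per cell, against 7241 UMIs in the cells with Cd3d or Cd3e. The Siglech members were deeper, at a median of 13012.5 UMIs.

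The 170 Siglech members carried the markers of plasmacytoid dendritic cells, the interferon-producing cells of which Siglech is a surface marker and Tcf4 the master transcription factor. All 170 held Tcf4, 99.4% held Irf8, 98.8% held Runx2 and 97.1% held Bst2. Of the 6 markers listed for that cell type, Cox6a2 was the exception, with 1 UMI in the 170 cells. The adaptor Skap1, found in 88.5% of the cells with Cd3d or Cd3e, was found in 0.588% of the Siglech members, and Themis and Zap70 had no UMI in any of the 170 cells (exact upper bound 2.15% of cells with a UMI). Cd3e was likewise at 0 in the Siglech members and Cd3d at 1 UMI, whereas their Cd3g reached 330 CPM (UMIs of a gene per 1000000 summed UMIs), against 554 CPM in the cells with Cd3d or Cd3e. In all, 373 kept cells with at most 1 Cd79 UMI held at least 3 Siglech UMIs. Of these, 121 held no Cd3 UMI, 82 held 1 and 170 (45.6%) held 2 or more and so entered the rule. Every library contributed 14 to 31 such members, or 15.8% to 38.9% of its members.

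**Figure D1:**
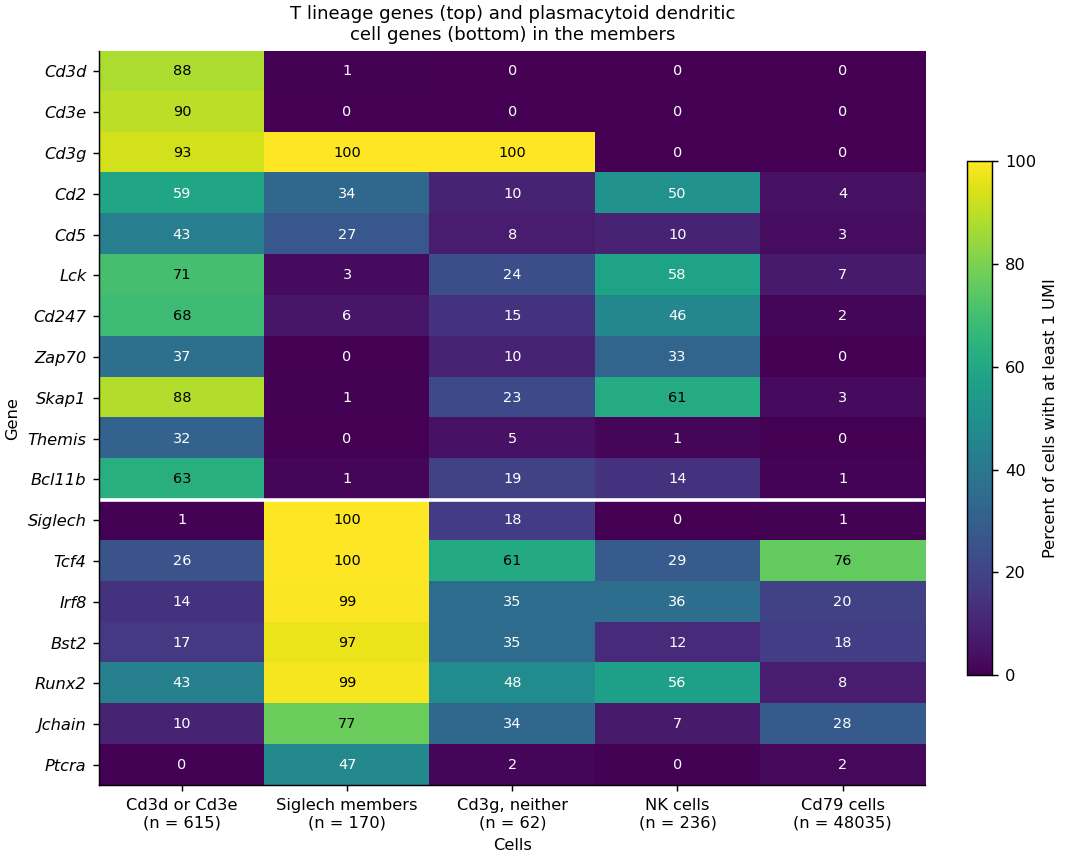
Percent of cells with at least 1 UMI of each gene (rows) in the members with Cd3d or Cd3e, the Siglech members, the members with Cd3g alone, NK cells and cells with Cd79 but no Cd3 (columns, with the number of cells). Lck, Skap1 and Bcl11b stand at 70.6%, 88.5% and 63.3% in the first column and at 2.94%, 0.588% and 1.18% in the second, where Tcf4, Irf8, Runx2 and Bst2 lie between 97.1% and 100%.

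Cd3g was also the CD3 gene that led in cells with both Cd3 and Cd79 UMIs, which the rule left out. A further 5580 of the 114232 kept cells held at least 2 Cd3 UMIs together with more than 1 Cd79 UMI, between 284 and 1342 per library. Of these, 4617 (82.7%) held Cd3g alone, and 99.4% held Ebf1, a transcription factor of the B lineage. Cd3g stood at 167 CPM in them, against 14.5 CPM for Cd3d and 9.27 CPM for Cd3e. These cells were chosen for holding Cd3 UMIs, so the levels follow in part from that choice and are not those of B lineage cells at large. Cd3g led as well in the 1095 cells with at most 1 Cd79 UMI and a single Cd3 UMI, and was detected in 74.1% of them. Among the members, 452 held all of Cd3d, Cd3e and Cd3g (53.4%) and 231 held Cd3g alone, of which 169 were Siglech members. How many of the 5580 droplets held more than 1 cell was not tested. Their median depth was 15207 UMIs. A Scrublet doublet score of at least 0.25 was found for 3.90% of the members with Cd3d or Cd3e, 0.588% of the Siglech members and 3.33% of all kept cells.

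The upstream sequences of the CD3 genes are shown because Cd3g was found without Cd3d although the genes are neighbours that start 1601 bases apart and are read in opposite directions. The sequences are the 250 bases before each start in RefSeq (build GRCr8), 5′ to 3′ on the gene's strand, with matches to CANNTG, the E-box bound by Tcf4 and related factors, in capitals. Cd3g is read from the minus strand of chr8:54183919-54184168, Cd3d from the plus strand of chr8:54185269-54185518 and Cd3e from the minus strand of chr8:54211771-54212020.
Cd3g: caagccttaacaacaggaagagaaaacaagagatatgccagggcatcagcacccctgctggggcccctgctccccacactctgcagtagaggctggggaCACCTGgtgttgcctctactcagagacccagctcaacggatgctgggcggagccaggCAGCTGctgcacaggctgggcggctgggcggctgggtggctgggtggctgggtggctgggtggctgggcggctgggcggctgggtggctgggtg
Cd3d: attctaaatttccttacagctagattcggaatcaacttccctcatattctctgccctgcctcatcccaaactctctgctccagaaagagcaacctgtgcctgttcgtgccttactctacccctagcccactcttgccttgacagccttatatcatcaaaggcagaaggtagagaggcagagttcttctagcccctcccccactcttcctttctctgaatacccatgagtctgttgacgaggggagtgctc
Cd3e: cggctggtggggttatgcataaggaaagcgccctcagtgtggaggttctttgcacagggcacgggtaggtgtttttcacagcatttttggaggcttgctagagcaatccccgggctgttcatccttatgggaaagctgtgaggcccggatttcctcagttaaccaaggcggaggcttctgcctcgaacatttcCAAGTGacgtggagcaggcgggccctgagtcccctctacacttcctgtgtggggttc
The Cd3g sequence held 2 matches, CACCTG at base -151 and CAGCTG at base -94 from the start, the Cd3e sequence held 1 match, CAAGTG at base -57, and the Cd3d sequence held 0. CANNTG reads the same on both strands. At least 1 match was present in 65.5% of 33469 promoters of the same length and at least 2 in 30.8%, so the count is a description of these letters and says nothing on binding.

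The values on either side of the rule's threshold showed the same mixture. Among cells with at most 1 Cd79 UMI, 1095 held a single Cd3 UMI and were left out, with Lck in 5.02% and Siglech in 7.49%. The 149 members with 2 Cd3 UMIs held Lck in 14.8% and Siglech (at least 3 UMIs) in 33.6%, and the 64 with 3 Cd3 UMIs held Lck in 18.8% and Siglech in 59.4%. The 634 members with at least 4 Cd3 UMIs held Lck in 66.2% and Siglech in 12.9%. The results below are therefore given for all 847 members, as the rule defines them, and beside them for the 615 cells with Cd3d or Cd3e, an alternative added after the data were seen.

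Per library the members numbered 109 in TO 2d 0h, 82 in TO 2d 4h, 78 in TO 4d 4h, 145 in TO 4d 24h, 133 in TOE 2d 4h, 127 in TOE 2d 24h, 137 in TOE 4d 4h and 36 in TOE 4d 24h. Their share of kept cells lay between 0.535% and 1.03% in 7 libraries, and TOE 4d 24h stood apart at 0.292% (exact Clopper-Pearson 95% interval 0.205% to 0.404%, counting error only). Among cells with Cd3d or Cd3e the gap was wider: TOE 4d 24h held 12 such cells, or 0.0973% (0.0503% to 0.17%), against 0.392% to 0.787% in the others. The library with the same day and hour without shock waves, TO 4d 24h, held 109 of them, or 0.773% (0.635% to 0.932%). In the other matched pairs the order was the opposite, with 0.596% in TOE 2d 4h against 0.392% in TO 2d 4h on the second day, and on the fourth day 0.787% in TOE 4d 4h against 0.432% in TO 4d 4h. As a ratio of TOE to TO, the member shares of the pairs were 1.47, 1.61 and 0.284. TOE 4d 24h also differed outside the members. Its other cells held neutrophil markers at 77106 CPM, against at most 37892 CPM elsewhere, and erythroid markers at 338 CPM, against at least 7639 CPM. Its share of cells with at least 3 Siglech UMIs was the lowest too, at 0.162% against 0.227% to 0.479%. The cause was not tested.

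**Figure D2:**
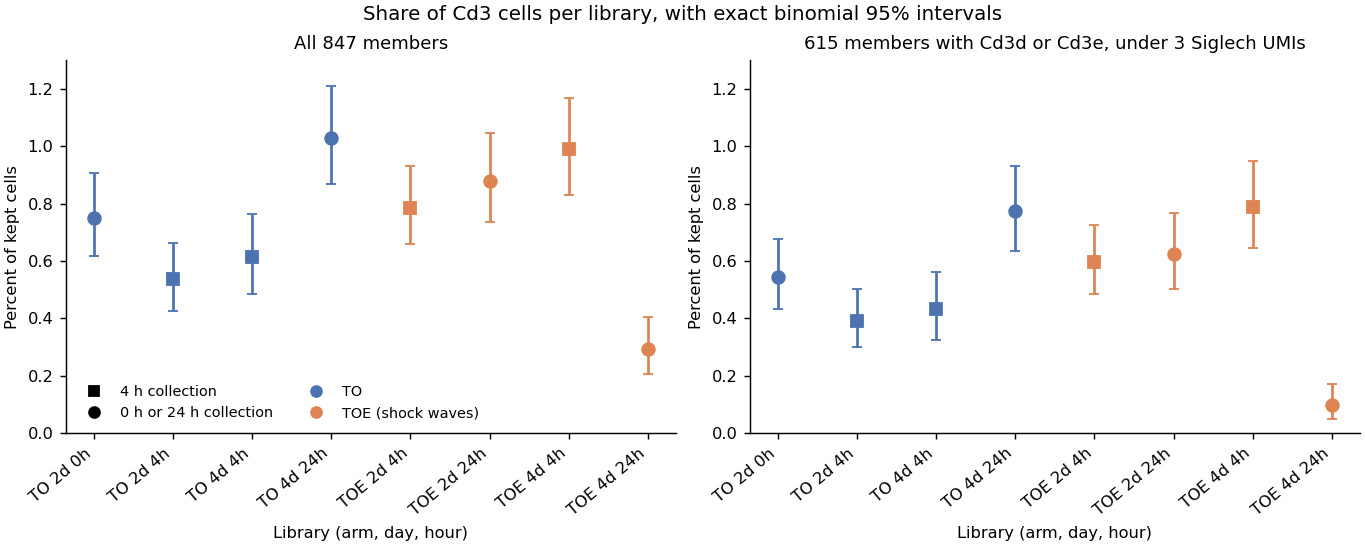
Share of kept cells (percent, vertical axis) that met the rule (left) or also held Cd3d or Cd3e and under 3 Siglech UMIs (right) in each library, with exact binomial 95% intervals; squares are 4 h collections. TOE 4d 24h lies lowest in both panels, at 0.292% and 0.0973%, and the other TO and TOE libraries overlap.

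Over all libraries the share of members did not follow arm, hour or day beyond the spread between libraries. The mean log2 share of TOE minus TO was -0.09, and an exact two-sided permutation test over the libraries gave p = 0.914. The 4 h collections differed from the others by 0.09 on the log2 scale (exact permutation p = 0.886), and day 4 from day 2 by -0.15 (exact permutation p = 0.8). The groups overlapped in each case. With 4 libraries against 4 the smallest p such a test can give is 0.0286. For the cells with Cd3d or Cd3e the differences were -0.33, 0.41 and -0.41, with the standard deviation of log2 shares at 1.40 in TOE and 0.44 in TO. Since shares of one library sum to a whole, fewer T cells and more of other cells cannot be told apart.

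NK cells, which share cytotoxic genes with CD8 T cells, were taken as cells with at least 2 UMIs of Ncr1, Klrd1 and Prf1, no Cd3 UMI and at most 1 Cd79 UMI. There were 236, between 20 and 38 per library. The lowest number of members per NK cell was 1.8, in TOE 4d 24h, the median was 3.51, and the highest was 6.30, in TO 4d 24h. The number of cells with Cd3d or Cd3e per NK cell ranged from 0.6 to 4.74 in the same libraries. The log2 ratio of members to NK cells differed by -0.33 between arms, -0.27 between hours and -0.11 between days (exact permutation p = 0.457, 0.571 and 0.8), and Benjamini-Hochberg adjustment over the 9 tests of shares and ratios gave 0.914 for each.

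Cells with a detected CD8 gene outnumbered cells with detected Cd4. Among the 615 cells with Cd3d or Cd3e, 349 (56.7%, exact 95% interval 52.7% to 60.7%) held Cd8a or Cd8b and no Cd4 UMI, 60 (9.76%, 7.53% to 12.4%) held Cd4 only, 3 held both and 203 (33.0%) held neither. The cells with neither had a median of 6209 UMIs, against 7746 in the CD8 cells and 6267.5 in the CD4 cells. CD8 cells numbered 51, 30, 29, 71, 61, 41, 61 and 5, and CD4 cells 5, 2, 8, 8, 6, 14, 14 and 3, in the order in which the libraries were listed above. CD8 cells led in every library. Cd4 had 108 UMIs in the 615 cells, against 1374 of Cd8a and 300 of Cd8b. Of the 45 cells with Foxp3, 21 held a Cd4 UMI. The counts and ratios are thus of detected transcripts and do not give the make-up of the T cells, and how many CD4 cells lacked a Cd4 UMI was not tested. Of the 342 cells with Cd8a, 148 also held Cd8b and 194 did not. Cd8a was also detected in NK cells, at 51.0 to 112 CPM per library, against 148 to 308 CPM in the cells with Cd3d or Cd3e.

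The ratio of CD8 to CD4 cells did not follow arm, hour or day beyond the spread between libraries. Among all members the ratio, computed with 0.5 added to each count, was lowest in TOE 4d 24h (0.846) and highest in TO 2d 4h (7.44). Its log2 mean was lower by 0.96 on day 4 (1.26 ± 1.25, SD, n = 4 libraries) than on day 2 (2.22 ± 0.83, n = 4), with an exact permutation p = 0.2. The difference between arms was -0.78 (exact permutation p = 0.343) and between hours 0.65 (exact permutation p = 0.457). Members with Cd4 included Siglech cells: 96 members held Cd4 without a CD8 gene, of which 60 held Cd3d or Cd3e and under 3 Siglech UMIs. In the cells with Cd3d or Cd3e the same ratio was lowest in TOE 4d 24h (1.57, from 5 CD8 and 3 CD4 cells) and highest in TO 2d 4h (12.2).

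Against NK cells of the same libraries, members carried more of some genes of naive, helper and regulatory T cells and less of the cytotoxic programme. Counts were summed per library and cell type and compared with edgeR's quasi-likelihood test with the library as a block. Of 11083 genes tested, 1226 (11.1%) were higher in members and 1029 (9.28%) lower. For the 615 cells with Cd3d or Cd3e, 630 of 9972 genes (6.32%) were higher and 814 (8.16%) lower. Members and NK cells were both chosen on marker UMIs of these libraries, so the marker genes of both rules are left out of all counts and the values of genes that go with them describe how these populations were separated.

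The genes of the antigen receptor machinery were divided. Of 18 tested genes of this list, 6 were higher in members and 5 lower, with a median log2 fold change of 0.13 against 0.10 over all genes. Among the cells with Cd3d or Cd3e 10 were higher and 1 lower, with a median of 0.88. Themis, which tunes receptor signals during T cell selection, stood at 46.2 to 133 CPM per library in members and at 0 to 11.8 CPM in NK cells, with no overlap (log2 fold change 4.85 ± 0.42, SE, adjusted p = 4.28e-08). Cd5, a brake on the same signal, was higher by 2.31 ± 0.27 (adjusted p = 1.76e-06), and the kinase Prkcq by 1.67 ± 0.18. Lck and Cd2 were lower in members than in NK cells by this test (-0.65 ± 0.16 and -0.76 ± 0.19, adjusted p = 0.00623 and 0.00583). In the cells with Cd3d or Cd3e their differences were 0.13 and -0.18, neither past the threshold. Cd247, Lat and Skap1 did not pass in members (0.14, 0.02 and 0.12) and stood at 0.95, 0.80 and 0.97 in the cells with Cd3d or Cd3e.

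Among 12 T lineage transcription factors, Bcl11b, Lef1 and Foxp1 were higher in members and Tcf7, Gata3, Ets1 and Ikzf3 lower. Bcl11b stood at 41.4 to 248 CPM in members and 11.8 to 81.2 CPM in NK cells (1.97 ± 0.25, adjusted p = 6.12e-06). In the cells with Cd3d or Cd3e it was higher by 2.70, Satb1 was also higher (1.01), and none of the 4 lower factors passed (Tcf7 0.12, Gata3 -0.16, Ets1 -0.08 and Ikzf3 -0.39), while Runx3 was lower. The genes of naive and central memory cells rose in 4 of 9 tested members of the list: S1pr1, the receptor by which lymphocytes leave tissue, by 2.67 ± 0.31 (adjusted p = 2.27e-06), Il7r by 1.66 ± 0.25, Lef1 by 1.29 ± 0.18 and Ccr7 by 1.51 ± 0.47 (adjusted p = 0.0277). Tcf7 of the same list was lower (-0.62), and the calls of Ccr7 and Tcf7 were each lost when 1 of at least 5 of the libraries was left out. S1pr1 stood at 59.6 to 170 CPM in members and 2.88 to 47.2 CPM in NK cells, and the groups did not overlap.

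Of 7 regulatory T cell genes tested, 5 were higher in members and 1 lower. Foxp3, the factor that defines regulatory T cells, had 139 UMIs in members and 0 in NK cells, which makes it at least 10.3-fold higher against 3 UMIs over all NK cells (adjusted p = 0.000332). Ctla4 and Il2ra, an inhibitory receptor and the interleukin 2 receptor alpha chain, were higher by 2.31 ± 0.46 and 1.63 ± 0.37, and Tnfrsf18 was lower (-1.47 ± 0.21). Of 8 helper genes 4 were higher, among them Cd40lg, the helper signal to B cells, with 44 UMIs against 0 (adjusted p = 0.0189). Of 10 tested cytokine and TNF ligand genes 3 were higher and 3 lower. Il17a had 94 UMIs in members and 0 in NK cells (adjusted p = 0.0014), but they came from 5 libraries, were at 0 in TO 2d 0h, TO 4d 24h and TOE 4d 24h, and the call was lost in DESeq2 (adjusted p = 0.615) and without the library block (adjusted p = 0.0629). Tnfsf11, which encodes RANKL, the ligand that drives osteoclast formation, had 78 UMIs in members and 1 in NK cells (3.70 ± 0.82, adjusted p = 0.00268), of which 21 lay in the cells with Cd3d or Cd3e, too few to be tested there. Csf1, Tgfb1 and Ltb were lower (-1.77, -1.0 and -1.26).

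All but 1 of 16 tested cytotoxic genes were lower in members and 0 were higher. The median was -3.03 against 0.10 over all genes, and 13 of 16 were lower among the cells with Cd3d or Cd3e, with a median of -2.32. Gzmk, a granzyme of early effector cells, stood at 0 to 85.2 CPM in members and 177 to 821 CPM in NK cells (-4.55 ± 0.38, adjusted p = 3.05e-08). The chemokine Ccl5 stood at 0 to 2032 CPM against 2689 to 7194 CPM (-4.30 ± 0.51) and Nkg7, a granule protein, at 29.2 to 218 CPM against 575 to 1813 CPM (-3.03 ± 0.22). The ranges did not overlap for any of these genes. Of 13 tested NK receptor genes 11 were lower, such as Klrb1a (-3.45 ± 0.20), Fcer1g (-2.58 ± 0.17) and Tyrobp (-0.64 ± 0.15), and Klrh1 was the one that was higher, with 87 UMIs against 0 (adjusted p = 0.00315, but 0.678 in DESeq2 and 0.0509 without the library block). Tyrobp was lower by 2.70 among the cells with Cd3d or Cd3e, beside 11263 Tyrobp UMIs in all members.

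**Figure D3:**
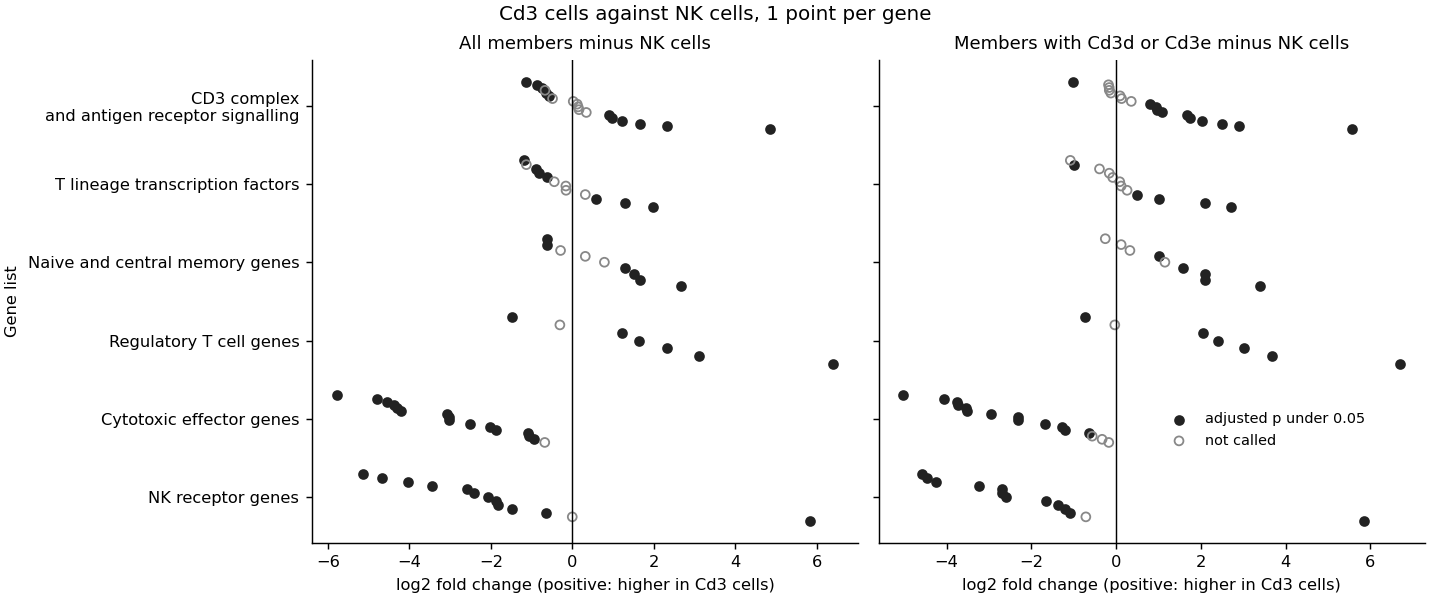
log2 fold change of Cd3 cells over NK cells (horizontal axis) for the tested genes of 6 lists (rows), 1 point per gene, filled where the adjusted p of edgeR was under 0.05; left, all members; right, members with Cd3d or Cd3e. Cytotoxic genes lie left of 0 in both panels, while more of the receptor signalling genes lie right of 0 in the right panel (10 called) than in the left (6 called).

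The genes with the largest differences from NK cells came in part from the Siglech members. Higher in members were Siglech, Ms4a4c, P2ry12, Kdr, Hs3st3a1, LOC102546819, Ccnd1, Tmem178a, Acvr2b and Foxp3. Of these only Ms4a4c, LOC102546819 and Foxp3 had enough counts to be tested among the cells with Cd3d or Cd3e. Ms4a4c, a tetraspan membrane protein, had 1281 UMIs in members, 1271 of them in cells with Cd3d or Cd3e, and 0 in NK cells, and so was at least 95.3-fold higher. Of 3926 Siglech UMIs 5 lay in the cells with Cd3d or Cd3e, and of 900 Hs3st3a1 UMIs 1. Lower in members were Gzma (-5.79 ± 0.48), Fcar, Dsc2, Adamts14, Ifit3, Klri1, Cacnb4, Prxl2b, Ccl6 and Klrg1, each with a log2 fold change between -5.79 and -4.80 and each also lower in the cells with Cd3d or Cd3e. The NK cells also held neutrophil markers, given in the next paragraph.

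Of 10 neutrophil markers 9 were tested, and 6 were lower in members (median -2.41, and -2.33 for the cells with Cd3d or Cd3e) and 0 higher. The NK cells themselves held S100a9 at 17854 CPM, in 99.2% of them, S100a8 at 7210 CPM and Retnlg at 1138 CPM. The 10 markers together stood at 2274 to 8282 CPM per library in members. How far neutrophil RNA in the droplets of NK cells set the differences from members was not tested. Of 8 tested monocyte and macrophage markers Cd68, Cd14 and Ccr2 were higher (1.78, 1.77 and 1.83, and 1.67, 2.10 and 1.23 in the cells with Cd3d or Cd3e, where they also passed) and 0 were lower. The calls of Cd68 and Cd14 were lost in members with at least 3 Cd3 UMIs (0.94 and 0.95), and that of Cd14 also without TO 2d 0h (adjusted p = 0.0632). Of 18 cell cycle genes 4 were lower and 0 higher, among them Top2a (-1.02 ± 0.21, adjusted p = 0.00103) and Mki67 (-0.52 ± 0.15), whose call was lost without TO 4d 4h or TO 4d 24h (adjusted p = 0.0520 and 0.0580). Mki67 was detected in 21.6% of the cells with Cd3d or Cd3e. Of 7 marker genes of small vesicles, 3 were lower (Cd9, Rab27a and Flot1, by -2.46, -1.34 and -0.90), and of 5 tested purinergic genes Nt5e and Adora2a were lower. Ribosomal protein genes, a list added after the data were seen, were higher in 63 of 87 with a median of 0.41.

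CD8 and CD4 cells of the members differed in cytotoxic genes and NK receptor genes, higher in CD8 cells, and in Foxp3, higher in CD4 cells. The comparison used 7 libraries, because TO 2d 4h held only 4 CD4 cells and was left out, and summed counts with the library as a block. The coreceptor genes are not counted. Of 8192 genes tested by edgeR, 398 (4.86%) were higher in CD8 cells and 411 (5.02%) lower. In the cells with Cd3d or Cd3e 282 of 7467 (3.78%) were higher and 115 (1.54%) lower. That fit used 6 libraries, because TOE 4d 24h held 3 CD4 cells with Cd3d or Cd3e and was also left out. The members of the same 6 libraries gave 385 higher and 373 lower genes. Of the plasmacytoid dendritic cell markers 5 of 5 tested were lower in CD8 cells of the members, and 0 of 4 in the cells with Cd3d or Cd3e.

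Of 14 tested cytotoxic genes 13 were higher in CD8 cells, with a median log2 fold change of 4.34 against 0.07 over all genes, and 12 of 14 were higher in the cells with Cd3d or Cd3e. Gzmm, a granzyme of resting cytotoxic cells, stood at 312 to 706 CPM in CD8 cells and 0 to 16.0 CPM in CD4 cells (6.67 ± 0.38, adjusted p = 1.11e-11). Nkg7 stood at 112 to 366 CPM against 0 to 18.4 CPM (5.22 ± 0.39) and the chemokine Ccl4 at 359 to 1608 CPM against 0 to 129 CPM (4.78 ± 0.38). Ccl5 varied more, from 0 to 4395 CPM in CD8 cells against 0 to 37.5 CPM (6.56 ± 0.41). Gzmk (4.53 ± 0.65) and Eomes (78 UMIs against 0, adjusted p = 0.00113) were likewise higher. In cells, Gzmm was detected in 245 of 349 CD8 cells with Cd3d or Cd3e (70.2%, 65.1% to 75.0%) and in 4 of 60 CD4 cells (6.67%, 1.85% to 16.2%). Gzmb was detected in 28 of the 349 CD8 cells and 0 of the 60 CD4 cells (exact upper bound 5.96%).

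The NK receptor genes followed the CD8 cells too. Of 11 tested, 8 were higher in CD8 cells, such as Klrd1 (4.71 ± 0.42, adjusted p = 2.4e-08) and Klrk1 (2.55 ± 0.40). Cd244 and Tyrobp were lower in CD8 cells of the members. In the cells with Cd3d or Cd3e 8 of 10 were higher and 0 lower, Tyrobp stood at 0.68 without passing and Cd244 had too few UMIs to be tested. In members without the Siglech cells Tyrobp was higher in CD8 cells (1.14, adjusted p = 0.0396), the reverse of its difference in all members. Among the genes with the largest differences were receptors of the Ly49 family and related lectins, all at 0 UMIs in CD4 cells: Ly49s6 with 500 UMIs in CD8 cells, Klra22 with 390, Klrb1c with 213, Klre1 with 192, Ly49i5 with 178 and Ly49i4 with 159. Styk1, a kinase-like receptor of NK cells, had 281. Each was at least 14.9-fold higher in CD8 cells against 3 UMIs over all CD4 cells. Ly49 genes are close copies of each other, so the split of their reads among family members is uncertain, and Ly49i5 lost its call in DESeq2 (adjusted p = 0.163).

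The constant segment LOC102554423, which RefSeq annotates as an antigen receptor C region, had 698 UMIs in CD8 cells and 0 in CD4 cells, at least 65.3-fold. Tarp, a transcript of the T cell receptor gamma locus, had 370 against 0, at least 34.6-fold. Among cells with Cd3d or Cd3e, LOC102554423 was detected in 197 of 349 CD8 cells (56.4%) and in 45 of the 203 cells with neither coreceptor (22.2%). NK cells held it too, in 36.0%, with Tarp in 44.9%, and cells with Cd79 held it in 0.173%. These transcripts were thus found in cells chosen for lacking Cd3 UMIs, and the receptor chains that a cell carried were not read.

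**Figure D4:**
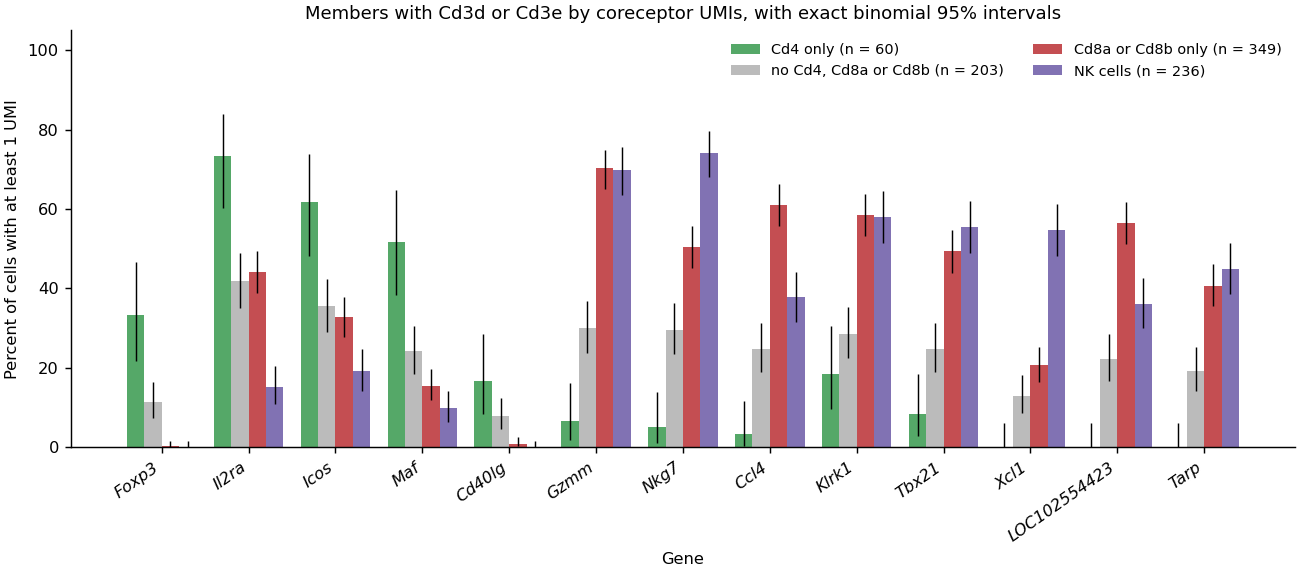
Percent of cells with at least 1 UMI (vertical axis, with exact binomial 95% intervals) of 13 genes among members with Cd3d or Cd3e that held Cd4 only, neither coreceptor, or Cd8a or Cd8b only, and among NK cells. Foxp3 was found in 33.3% of the Cd4 cells and 0.287% of the CD8 cells, Gzmm in 6.67% and 70.2%.

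Of 5 regulatory T cell genes tested, Foxp3, Il2ra and Tnfrsf18 were lower in CD8 cells and Ikzf2 was higher (1.24), while Ctla4 differed by 0.03 without passing. Of 4 helper genes tested, Maf and Icos were lower in CD8 cells and 0 were higher. The same 3 regulatory and 2 helper genes were lower in the cells with Cd3d or Cd3e, where Ikzf2 did not pass (0.77). Cd40lg, with 18 UMIs in CD4 cells and 4 in CD8 cells, had too few to be tested. The call of Tnfrsf18 was lost without TO 2d 0h or TO 4d 24h (adjusted p = 0.180 and 0.111), and that of Ikzf2 without TO 2d 0h or TOE 2d 24h (adjusted p = 0.0562 and 0.0650). Foxp3 had 79 UMIs in CD4 cells and 5 in CD8 cells (-5.58 ± 0.60, adjusted p = 4.3e-07), at 36.8 to 168 CPM per library against 0 to 8.41 CPM. Of the 615 cells with Cd3d or Cd3e, 45 held a Foxp3 UMI (7.32%, 5.39% to 9.67%), 21 of which also held Cd4 and 1 of which held a CD8 gene without Cd4. Of the CD4 cells 33.3% (20 of 60) held Foxp3. Maf (-1.87 ± 0.34), Icos (-1.48 ± 0.38, adjusted p = 0.0105), Il2ra (-1.01 ± 0.25) and Gata3 (-1.28 ± 0.31), factors and receptors of activated helper cells, were lower in CD8 cells, and each was further apart in the cells with Cd3d or Cd3e (-2.63, -2.35, -1.73 and -1.91). The ranges over libraries overlapped for these 4 genes. Icos lost its call without either of 2 libraries, and Il2ra and Gata3 without 1. Il2ra and Gata3 also lost it when cells with a Scrublet score of at least 0.25 were removed (adjusted p = 0.0508 and 0.0740).

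The other genes with the largest differences on the CD4 side were Itgb8, Bricd5, Neb, Hs3st3a1, Ccnd1, Baiap2l2, Siglech, P2ry12 and C2h1orf162. Itgb8, an integrin chain that helps to activate TGF-beta, had 61 UMIs in CD4 cells and 0 in CD8 cells, at least 72.4-fold against 3 UMIs over all CD8 cells, and all 61 lay in cells with Cd3d or Cd3e. Neb had 51 against 1. Itgb8 and Neb each lost their call in DESeq2 (adjusted p = 0.074 and 0.0636). Bricd5, Hs3st3a1, Ccnd1, Baiap2l2, Siglech, P2ry12 and C2h1orf162 had 0 or 1 UMI in the CD4 cells with Cd3d or Cd3e. Of 10 heat shock chaperones 2 were higher in CD8 cells and 0 lower, and 5 were higher in the cells with Cd3d or Cd3e. Ribosomal protein genes, a list added after the data were seen, were higher in CD8 cells in 73 of 85 tested, with a median of 0.61, and in 72 of 84 with Cd3d or Cd3e.

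Some T cell programmes were sparse. Among the 615 cells with Cd3d or Cd3e, Il17a was found in 19 cells (3.09%), Ifng in 30 (4.88%) and Rag1 or Dntt, the genes of receptor rearrangement, in 28 (4.55%). The 19 cells with Il17a were 0, 4, 4, 0, 3, 1, 7 and 0 in the order of the libraries, so all but 1 of them came from the 4 h collections, and 7 from TOE 4d 4h. Cells are not replicates, so these counts describe the libraries and are not a test of the hour. Rag1 was found in 42.2% of the cells with Cd79 and without Cd3, against 3.09% of the cells with Cd3d or Cd3e. Ebf1 stood at 178 CPM in the cells with Cd3d or Cd3e, at 181 CPM in NK cells and at 7051 CPM in the cells with Cd79.

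Shock waves left no gene past the threshold in the members. Counts summed over the members of each library were fitted with arm, day and hour together. For arm, 0 of 10466 genes (0%) passed in edgeR, 444 had an unadjusted p under 0.05, and DESeq2 called 0. Among the cells with Cd3d or Cd3e 0 of 9001 passed. For day, 0 genes (0%) passed in edgeR, 357 had an unadjusted p under 0.05, and DESeq2 called 7. With 4 residual degrees of freedom among 8 libraries, a p that misses the threshold does not show that levels were the same.

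The hour of collection was the factor with genes past the threshold in the members, as it was in all other cells of the same libraries. At 4 h, 287 of 10466 genes (2.74%) were higher and 246 (2.35%) lower than at 0 h and 24 h. Among the cells with Cd3d or Cd3e 288 of 9001 (3.2%) were higher and 278 (3.09%) lower. In all other cells edgeR called 138 of 22526 genes (0.613%) higher at 4 h and 217 (0.963%) lower, with 0 called for arm and 0 for day (583 and 308 at an unadjusted p under 0.05). The fits of the members and of the cells with Cd3d or Cd3e called 279 genes in common, all in the same direction, which is 52.3% of the genes called in members and 49.3% of those called in the cells with Cd3d or Cd3e. The count in members fell to 27 without TOE 2d 4h and 29 without TO 2d 0h, and rose to 843 without TOE 4d 24h, whereas in the cells with Cd3d or Cd3e it lay between 173 and 539 whichever library was left out. At day 2 the comparison library without shock waves was taken at 0 h and the one with shock waves at 24 h, so the other hour is not the same time in both arms.

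Of 10 heat shock chaperones tested, 5 were higher at 4 h and 0 lower in members, with a median of 0.77 against 0.00 over all genes, and 6 were higher in the cells with Cd3d or Cd3e, with a median of 1.03. Hspa1b, an inducible chaperone of the Hsp70 family, stood at 464, 880, 845 and 895 CPM in the cells with Cd3d or Cd3e of TO 2d 4h, TO 4d 4h, TOE 2d 4h and TOE 4d 4h, and at 77.6, 324, 48.9 and 0 CPM in TO 2d 0h, TO 4d 24h, TOE 2d 24h and TOE 4d 24h. The 4 h libraries were all above the others, in both arms and on both days. In members its log2 fold change was 2.36 ± 0.57 (adjusted p = 0.0467). Hsph1, a cochaperone of the same system, stood at 1002 to 2091 CPM at 4 h and at 167 to 400 CPM otherwise in the cells with Cd3d or Cd3e (log2 fold change 2.28 there, and 1.64 ± 0.36 in members, adjusted p = 0.0343). Dnajb1 (1.34 ± 0.23), Hspa1a (1.15 ± 0.24) and Hsp90aa1 (1.01 ± 0.21) were higher as well. The same genes differed by 0.78, 0.89, 0.27, 0.14 and 0.61 in all other cells of the libraries (Hspa1b, Hsph1, Dnajb1, Hspa1a and Hsp90aa1), none of them past the threshold. Each of these 5 calls in members was lost when 1 of at least 5 of the libraries was left out.

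Immediate-early genes were higher in 3 of 19 tested and lower in 0. Nr4a1, an orphan receptor induced by antigen receptor signals, stood at 226 to 378 CPM in members at 4 h and 74.4 to 145 CPM otherwise (1.39 ± 0.24, adjusted p = 0.0217). Nr4a2 (1.17 ± 0.17, adjusted p = 0.0136) and Nfkbia, the inhibitor of NF-kB (1.45 ± 0.29, adjusted p = 0.0303), were higher too. Nfkbia was also higher by 1.14 in the other cells, without passing the test. Prf1, which encodes perforin, stood at 30.8 to 67.0 CPM in members at 4 h and 7.30 to 16.4 CPM otherwise (1.74 ± 0.32, adjusted p = 0.024), and was the cytotoxic gene that passed among 15 tested. The lectin receptor Klrb1c was higher by 1.90 ± 0.32 (adjusted p = 0.0212). Skap1 and Ptprcap were higher by 0.88 ± 0.18 and 0.72 ± 0.17 in members, and did not pass in the cells with Cd3d or Cd3e (0.36 and 0.69).

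Txnip, an inhibitor of thioredoxin that glucocorticoids induce, was lower at 4 h, at 40.2 to 50.9 CPM against 56.0 to 122 CPM (-1.19 ± 0.24, adjusted p = 0.0303), and by -1.0 in the other cells without passing. The calls in members of Nr4a1, Nr4a2, Nfkbia, Prf1, Klrb1c and Txnip were each lost without TO 2d 0h, TO 4d 24h or TOE 2d 4h, with the direction kept and adjusted p of at most 0.0988, 0.0746, 0.108, 0.103, 0.0863 and 0.109 whichever library was left out, and those of Skap1 and Ptprcap were lost without the same libraries. Nr4a1, Nr4a2, Nfkbia, Prf1, Klrb1c and Txnip also passed in the cells with Cd3d or Cd3e (1.53, 1.04, 0.87, 1.47, 1.52 and -1.51). S1pr1 did not pass in members (-0.67 ± 0.23, adjusted p = 0.116). In the cells with Cd3d or Cd3e S1pr1 stood at 94.5, 89.0, 153 and 124 CPM at 4 h (TO 2d 4h, TO 4d 4h, TOE 2d 4h and TOE 4d 4h) and at 180, 185, 296 and 318 CPM otherwise (-1.21). Tsc22d3 and Klf9 of the glucocorticoid list were lower there too (-0.82 and -0.87). Of 87 ribosomal protein genes, a list added after the data were seen, 14 were lower at 4 h and 9 higher in members (median -0.29 against 0.00 over all genes), and of 86 in the cells with Cd3d or Cd3e 38 were lower and 9 higher (median -0.43 against 0.04).

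**Figure D5:**
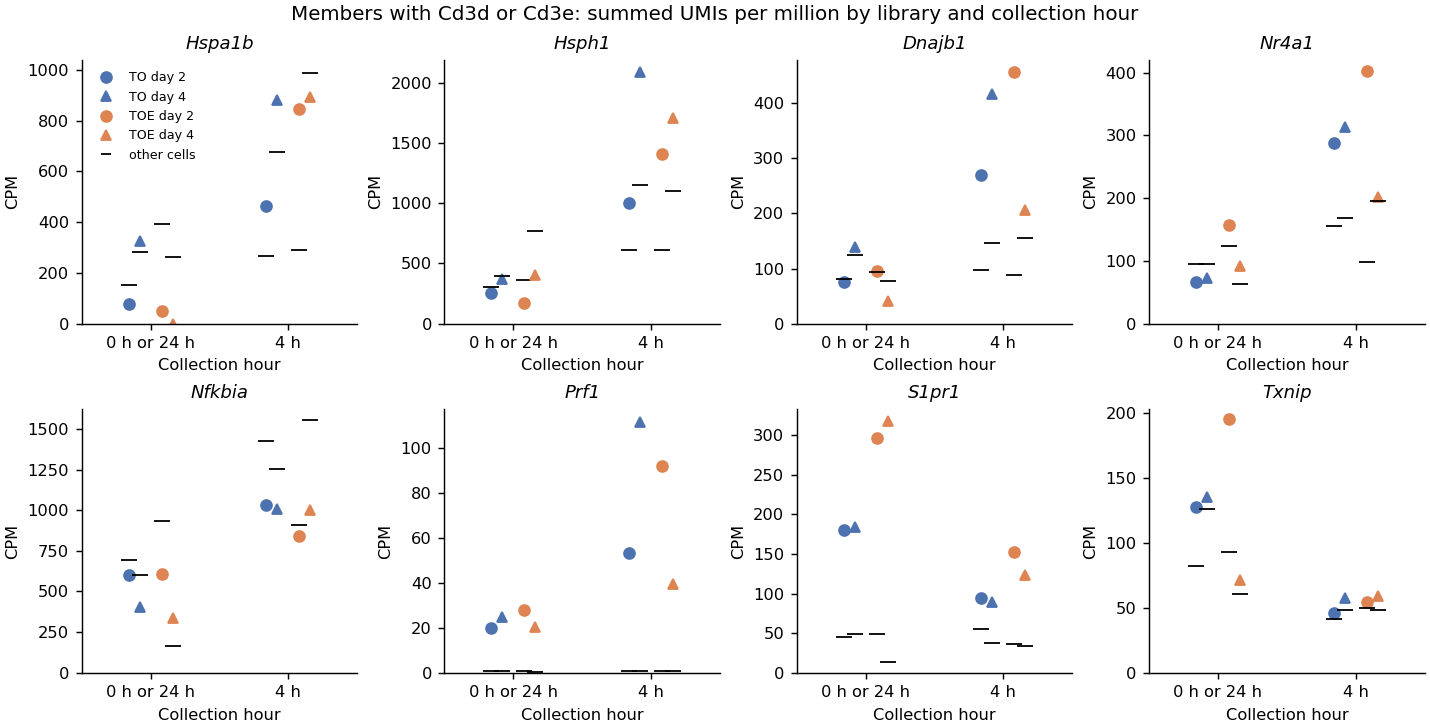
Level in CPM (vertical axis) of 8 genes in the members with Cd3d or Cd3e of each library, by collection hour; colours give the arm, circles day 2 and triangles day 4, and black dashes all other cells of the same library. Hspa1b, Hsph1, Dnajb1 and Prf1 lie higher in the 4 libraries of 4 h than in the others, and S1pr1 and Txnip lower.

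The genes with the largest differences by hour were of mixed roles. Higher at 4 h were Hpse2, LOC108352411, Ccdc103, Atg4a, LOC108353429, Dpf3, Slc5a3, Kcng3, LOC120099849 and LOC120098293. In the cells with Cd3d or Cd3e Ccdc103 had 1 UMI at 4 h and 2 otherwise, too few to be tested. LOC108353429 and LOC120099849 did not pass there (adjusted p = 0.0659 and 0.388), and the others did. Atg4a, a protease of autophagy, rose from 81 to 600 UMIs (3.03 ± 0.23, adjusted p = 0.00129), and Slc5a3, the carrier of the osmolyte inositol, from 27 to 183 (2.86 ± 0.32), and both kept their calls without any one library. All other cells of the libraries moved the same way by edgeR in Atg4a (1.55, adjusted p = 0.0139) and Slc5a3 (2.30, adjusted p = 0.0355). LOC108352411 (2.00) and Dpf3 (1.52) also passed in the other cells, and the rest of the genes named as higher did not. Lower at 4 h were Prss29, Sdc2, Phlda3, Ibsp, Reln, Cthrc1, Col6a3, Tpm2, Col5a2 and Cd300c, among which Ibsp, Cthrc1, Col6a3 and Col5a2 are matrix genes of bone and connective tissue. Only Prss29 and Reln of these passed in the cells with Cd3d or Cd3e. Ibsp did not (adjusted p = 0.0659), and the others had too few UMIs there to be tested. In members Ibsp reached 484 CPM in 1 library, against a median of 11.5 CPM outside 4 h. The calls of Ibsp and Col5a2 were lost in 7 of the 8 fits with 1 library left out, and those of Sdc2, Col6a3 and Tpm2 in 6. Prss29, Sdc2 and Phlda3 had 0 UMIs at 4 h and were at least 19.3-fold, 15.0-fold and 12.3-fold lower, and each lost its call when 1 of at least 2 of the libraries was left out. Of their 64, 50 and 41 UMIs outside 4 h, 40, 5 and 2 lay in the cells with Cd3d or Cd3e. Reln, the secreted glycoprotein reelin, fell from 301 UMIs to 7 (-5.19 ± 0.45, adjusted p = 0.00192) and from 190 to 5 in the cells with Cd3d or Cd3e. In all other cells Reln (-2.31, edgeR adjusted p = 0.0211) and Prss29 (-7.66, adjusted p = 0.00191) were lower too. The rest of the genes named as lower did not pass there.

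Markers of mesenchymal cells moved with the hour in the members and in all other cells. Over the 9 listed genes, none of which was at 0, their summed level was 81.2 to 241 CPM at 4 h and 348 to 4507 CPM otherwise in members, 88.8 to 274 CPM and 400 to 1144 CPM in the cells with Cd3d or Cd3e, and 1656 to 4315 CPM and 4435 to 12814 CPM in the other cells. Their part in the results by hour was not tested. Erythroid markers stood at 774 to 10678 CPM in members at 4 h and 34.1 to 3533 CPM otherwise, and neutrophil markers at 2359 to 8282 CPM and 2274 to 6528 CPM.

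A fit that compared members with all other cells of the same libraries asked whether a factor moved the members differently. For arm, 115 of 22551 genes (0.51%) passed in edgeR, 31 with a higher and 84 with a lower difference in members, and DESeq2 called 0. Most genes with the largest differences had few UMIs. Mmp13 had 290 UMIs in members of TOE libraries and 2 in TO libraries, Igfbp5 had 75 and 2, and the macrophage complement genes C1qa, C1qb and C1qc had 13, 11 and 9 against 93, 59 and 49. Single libraries carried these values. Without TOE 2d 24h the log2 difference of Mmp13 was 0.60 in place of 6.95 (adjusted p = 1.0), and its call was also lost without TO 2d 0h (4.89, adjusted p = 0.102). The call of Igfbp5 was lost without TOE 4d 4h (-0.27) or TO 4d 4h (1.3). C1qa stood at 83.1 CPM in TO 4d 4h and at most 15.0 CPM in any other library, and without TO 4d 4h the 3 complement genes differed by -1.23, -0.04 and -0.69 and did not pass. For hour, 132 (0.585%) were higher and 64 (0.284%) lower, and DESeq2 called 17. Among the higher were 8 of 18 receptor signalling genes, 7 of 20 cytotoxic genes and the chaperones Hspa1a, Hspa1b, Hsph1 and Dnajb1, of which Hspa1a, Hsph1 and Dnajb1 lost their calls without TOE 2d 4h and Hsph1 also without TO 4d 24h or TOE 2d 24h, and among the lower 5 of 9 mesenchymal markers. Neutrophil markers were among the higher too, in 5 of 10. In the cells with Cd3d or Cd3e 55 of 22542 genes (0.244%) were higher and 37 (0.164%) lower, with 0 of 18 receptor signalling genes, 1 of 20 cytotoxic genes, 7 of 10 chaperones and 3 of 10 neutrophil markers among the higher and 1 of 9 mesenchymal markers among the lower. Siglech cells, which lacked several receptor signalling genes, made up 15.8% to 25.6% of the members at 4 h and 16.5% to 38.9% otherwise. These ranges overlapped, and the part of the Siglech cells in the calls was not tested. Dcstamp had 26 UMIs at 4 h, 25 of them in the cells with Cd3d or Cd3e, and 0 otherwise. Phlda3 had 0 at 4 h and 41 otherwise, of which 2 lay in the cells with Cd3d or Cd3e. For day, 38 (0.169%) passed and DESeq2 called 0, with the erythroid gene Car1 at 46 UMIs on day 4 and 600 on day 2. The higher side held the neutrophil genes RatNP-3b (5577 UMIs on day 4 and 1670 on day 2), Defa5 (2923 and 985), Defa11, Lcn2 and Ngp. RatNP-3b, Defa5 and Defa11 also passed in the cells with Cd3d or Cd3e, and Lcn2 and Ngp did not. Each lost its call when 1 of at least 2 of the libraries was left out. RatNP-3b was higher for hour too (1.76, and 2.09 in the cells with Cd3d or Cd3e). Car1 stood at 423 CPM in TO 2d 0h and at most 45.1 CPM in any other library, and without TO 2d 0h its log2 difference was -1.57 in place of -3.15 (adjusted p = 0.0444).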

How the data were processed

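Cells of tibial osteotomy tissue were measured by droplet 3′ RNA sequencing in 8 libraries, 1 per condition. The authors deposited filtered matrices of raw UMI counts per gene and barcode. Per the labels, these were made with Cell Ranger 9.0.0. The submitters' processing notes also list Seurat, R 4.0.3 and the builds mRatBN7.2 and GRCh38 without their roles. The library TO 2d 24h was not analysed here.

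Barcodes were kept where 200 or more genes were detected and no more than 20% of the UMIs were mitochondrial. No doublets were removed, with Scrublet scores (scanpy 1.11.5, Python 3.11.15) used as an alternative. The members and all gene lists were chosen with earlier results of these data known. Groups came from the titles of the samples. CD8 cells held Cd8a or Cd8b and no Cd4 UMI, and CD4 cells the reverse. A library needed at least 5 cells of each to enter their comparison. Log2 shares and ratios were compared over libraries by exact two-sided permutation tests (SciPy 1.17.1, 70 assignments), adjusted by Benjamini-Hochberg over 9 tests. Cells are not replicates, so counts were summed per library and cell type. Genes with a summed count of at least 40 were tested with edgeR 4.0.16 (R 4.3.3, TMM scaling, quasi-likelihood test, Benjamini-Hochberg adjustment over all genes tested, threshold 0.05). The SE given with log2 fold changes was computed back from the test, as the fold change divided by the square root of its F statistic. Members against NK cells and CD8 against CD4 cells had the library as a block. Arm, day and hour were fitted together, and their difference between members and all other cells with the library as a block. The procedure was tested on simulated data drawn from a common mean profile for all sums, which cannot show how it handles libraries that differ in make-up.

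Genes are named if listed (284 of 294 listed genes in 27 lists were in the files) or if among the 10 largest changes called in each direction of a fit. For genes at 0 UMIs in a group, fold bounds were set against 3 UMIs over the group. Intervals are exact Clopper-Pearson 95% intervals and cover counting error only. Depth was 410986 to 1527140 UMIs of members per library, and 97593 to 1059635 in the cells with Cd3d or Cd3e. Promoters came from RefSeq (build GRCr8), matched by symbol. Some listed genes are not reported here. Alternatives were DESeq2 1.42.0, its size factors, other filters on cells, counts and CD3 UMIs, thinning each cell to 1500 UMIs, removal of high Scrublet scores, each library left out, other blocks and, chosen after seeing the data, members without Siglech or with Cd3d or Cd3e.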

Additional observations from a re-analysis of the deposited data

Results flagged for a closer look

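Within the TOE libraries the ratio of members to NK cells in TOE 4d 24h was far below the others, with the gap to the nearest library covering 0.888 of the range on the log2 scale, above Dixon's 95% critical value for 4 samples. The library held 36 members and 20 NK cells, a ratio of 1.8 against 3.5 to 3.81 in the other TOE libraries. At this value chance would flag about 1 in 20 groups, and with 6 groups checked a flag by chance in any of them is likelier than that. Its cause was not tested.

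The effects of the factors on gene levels were called different between members and all other cells of the same libraries, by a test of the difference itself, in few genes. Of 22551 tested, these were 115 for arm (0.51%), 196 for hour (0.585% higher and 0.284% lower) and 38 for day (0.169%). The filter on counts was met by members and other cells together, whereas 10466 genes met it in members alone. DESeq2 called 0, 17 and 0 genes for the same differences. For arm, Mmp13 rested on 290 UMIs against 2, of which 4 and 2 lay in the cells with Cd3d or Cd3e.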

How the results depend on the processing

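None of the shares and ratios passed a test, so their directions are not established. With 1 library left out the smallest p such a test can give is 0.0571, and with 3 matched pairs 0.25, so these alternatives could not pass and say nothing on stability. With cells thinned to 1500 UMIs the log2 difference of the share of members was 0.0372 between arms and -0.30 between hours, that of the CD8 to CD4 ratio 0.000381, -0.80 and 0.21 between arms, hours and days, and that of the T to NK cell ratio, of members to NK cells, 0.0214 between arms. Against cells with at most 1 Cd79 UMI the share differed by -0.14 between hours, and the T to NK cell ratio of the cells with Cd3d or Cd3e by 0.0386. Leaving out each library in turn, for members and for cells with Cd3d or Cd3e, moved the share over -0.64 to 0.36 (arm), -0.31 to 0.73 (hour) and -0.73 to 0.27 (day), the T to NK cell ratio over -0.62 to 0.39 (hour) and -0.76 to 0.22 (day), and the numbers of called genes over 0 to 16 (arm), 27 to 843 (hour) and 0 to 11 (day). For members minus other cells the ranges were 27 to 148, 94 to 200 and 12 to 81 genes.

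Members against NK cells gave 1438 called genes without the Siglech cells and 1444 with Cd3d or Cd3e, in place of 2255, and CD8 against CD4 cells 371 and 397 in place of 809, with fewer cells summed. Without a filter on low counts 130 genes were called for arm, 1265 for hour and 92 for day, with more genes tested, and DESeq2 called 7 for day. For members minus other cells DESeq2 called 0 genes for arm, 17 for hour and 0 for day, at least 3 Cd3 UMIs gave 19 for arm, and cells with Cd3d or Cd3e gave 92 for hour and 19 for day. The cause was not tested.

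With no replicate block the comparison with NK cells called 1787 genes and CD8 against CD4 cells 648. A replicate block of the 3 matched TOE and TO pairs called 0 genes for arm in members and 0 in the cells with Cd3d or Cd3e. The block did not move these counts by over 1.5 times. Of the genes with values in the text, called ones that changed sign were Lck and Tcf7 against NK cells (0.13 and 0.12 in the cells with Cd3d or Cd3e), Tyrobp in CD8 against CD4 cells (1.14 without the Siglech cells and 0.68 in the cells with Cd3d or Cd3e) and the arm difference of Igfbp5 (-0.18 with high Scrublet scores removed, and from -0.27 without TOE 4d 4h to 13.8 without TO 4d 24h). Values near 0 that had not passed changed sign as well. Lat against NK cells was -0.00305 with the stricter filter on cells, -0.0247 with high Scrublet scores removed, -0.0337 with RLE scaling, -0.0361 in DESeq2, -0.0356 with a summed count of at least 80 and -0.0120 with no replicate block, and -0.11 to 0.17 with a library left out, and Skap1 was -0.0336 to 0.21 there. Ctla4 in CD8 against CD4 cells was -0.0921 with at least 3 Cd3 UMIs, -0.95 without the Siglech cells, -0.90 in the cells with Cd3d or Cd3e, -0.0429 with RLE scaling, -0.00537 with a summed count of at least 80, -0.15 with no replicate block and -0.29 to 0.63 with a library left out. Among 345 lost calls of these genes 245 were in the fit of the hour in members and 19 in the hour difference between members and other cells. Few CD4 cells, at 4 to 21 per library, limited the subsets, and 12 cells with Cd3d or Cd3e the library TOE 4d 24h.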

Other observations

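The 121 cells with at least 3 Siglech UMIs, few Cd79 UMIs and no Cd3 UMI carried the same markers as the Siglech members, with Tcf4 in 100%, Runx2 in 97.5% and Irf8 in 88.4%. Their median depth was 9336 UMIs against 13012.5 in the Siglech members. Ptcra, the pre-T cell receptor alpha chain that plasmacytoid dendritic cells also express, was detected in 24.0% of them, in 47.1% of the Siglech members and in 0.488% of the cells with Cd3d or Cd3e.

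The 62 members with Cd3g alone and under 3 Siglech UMIs held Mki67 in 43.5%, Tyrobp in 66.1% and Ebf1 at 627 CPM. The cells with Cd3d or Cd3e held Mki67 in 21.6% and Tyrobp in 42.8%. Among 203 cells with Cd3d or Cd3e but neither coreceptor, Foxp3 was found in 11.3% and Gzmm in 30.0%.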
